A study of Homo sapiens with 6 samples.

Results

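The genes described here are 9 targets of the transcription factor p53: MDM2, GADD45A, TNFRSF10B, FDXR, ZMAT3, PHLDA3, RRM2B, BAX and TP53I3. They were chosen by gene symbol, and all 9 had a row among the 29435 genes of the deposited table. RNA was sequenced from cultured cells labelled HepG2, a human liver tumour line, after 4 h with saikosaponin A (SsA, a triterpenoid saponin of Bupleurum root) at 20 µM or after 4 h with its vehicle, DMSO. Both groups were grown in DMEM with fetal bovine serum and antibiotics, and each had 3 libraries, numbered 1 to 3. Whether the 3 libraries of a group are separate cultures is not stated in the labels. The p-values therefore rest on the spread among the sequenced libraries alone, which may be technical.

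p53 is a transcription factor that is kept scarce by the ubiquitin ligase MDM2 and accumulates when DNA is damaged or the cell is otherwise stressed. It then raises transcription of genes that stop the cell cycle, repair DNA, adjust metabolism or start apoptosis, and of MDM2 itself, which closes a feedback loop. In bulk RNA, fewer cells expressing a gene and less of its RNA per cell cannot be told apart.

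The promoter windows of the genes are shown for MDM2 and FDXR, which held letters close to the p53 site, and for BAX and ZMAT3, which had the largest rise and the largest fall. RefSeq windows (GRCh38.p14) from 250 bases before to 50 bases after an annotated start were used here for 5 of the 9 genes, as 8 separate windows. Windows of GADD45A, PHLDA3, TNFRSF10B and RRM2B were not searched. A p53 site is a pair of decamers that may be separated by 0 to 13 bases. It was searched by the published p53 decamer consensus, which is its own reverse complement, so that 1 strand covers both. Capitals mark decamer pairs with at most 2 mismatches, or a single decamer with none.
MDM2, inner start, chr12:68808767-68809066, plus strand: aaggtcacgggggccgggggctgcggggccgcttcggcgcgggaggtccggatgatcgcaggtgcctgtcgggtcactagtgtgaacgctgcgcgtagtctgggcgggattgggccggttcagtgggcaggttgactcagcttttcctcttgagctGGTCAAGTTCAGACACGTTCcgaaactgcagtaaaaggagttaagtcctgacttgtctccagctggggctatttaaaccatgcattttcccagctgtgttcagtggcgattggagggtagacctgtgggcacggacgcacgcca
FDXR, chr17:74872945-74873244, minus strand: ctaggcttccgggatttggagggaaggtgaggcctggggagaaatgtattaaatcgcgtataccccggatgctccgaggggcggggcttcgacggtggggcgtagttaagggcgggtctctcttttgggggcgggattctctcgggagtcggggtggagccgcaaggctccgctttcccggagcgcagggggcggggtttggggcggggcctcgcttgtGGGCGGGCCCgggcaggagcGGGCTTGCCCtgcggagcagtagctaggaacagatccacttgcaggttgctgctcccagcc
BAX, chr19:48954625-48954924, plus strand: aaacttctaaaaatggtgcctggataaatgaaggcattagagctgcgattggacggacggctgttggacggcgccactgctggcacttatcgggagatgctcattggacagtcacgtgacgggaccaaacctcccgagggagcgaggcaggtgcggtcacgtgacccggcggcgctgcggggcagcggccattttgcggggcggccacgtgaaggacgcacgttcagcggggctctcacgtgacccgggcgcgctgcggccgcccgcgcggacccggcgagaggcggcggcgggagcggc
ZMAT3, chr3:179071760-179072059, minus strand: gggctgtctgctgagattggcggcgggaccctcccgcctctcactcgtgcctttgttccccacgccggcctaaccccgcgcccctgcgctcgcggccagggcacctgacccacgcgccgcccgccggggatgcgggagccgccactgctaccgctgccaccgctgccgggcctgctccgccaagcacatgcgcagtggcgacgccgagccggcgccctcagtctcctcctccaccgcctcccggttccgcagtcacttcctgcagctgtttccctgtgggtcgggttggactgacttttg

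In the MDM2 window the pair lay from 94 to 75 bases before the start, with no spacer and 2 mismatches. The FDXR window held a decamer without mismatch that began 11 bases before the start, and the pair with 2 mismatches that spans from 31 to 2 bases before the start includes it. A decamer without mismatch was present in 6.63% of 35116 windows of the same length, and a pair with at most 2 mismatches in 7.82%. The windows of BAX, ZMAT3 and TP53I3, the outer window of MDM2 (chr12:68807922-68808221) and a second window of FDXR held neither. A match is a description of letters, and sites outside these windows were not searched.

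Transcripts of 4 of the 9 genes rose after SsA, those of 3 fell, and those of 2 did not pass the test, so the group did not move one way. BAX rose 1.79-fold, FDXR 1.65-fold, GADD45A 1.58-fold and TP53I3 1.52-fold. ZMAT3 fell 1.63-fold, MDM2 1.18-fold and TNFRSF10B 1.15-fold, but the direction of MDM2 turned with an offset for transcript length. The test was edgeR's quasi-likelihood test on the deposited counts, two-sided, called at a Benjamini-Hochberg adjusted p below 0.05 over the 11427 genes tested. Of those, 53.8% were called, 25.9% as higher and 27.9% as lower, so that 7 calls among 9 genes came against a background in which most genes were called. The libraries of the 2 groups did not overlap for 7 of the 9 genes, 4 higher and 3 lower after SsA, against 62.8% of all genes (30.4% higher, 32.4% lower). The median log2 fold change was 0.39 over the 9 genes and 0.03 over all genes tested. In the 4 low-mitochondrial libraries described below, 5 of the 9 were called higher and 3 lower, against 33.3% and 34.5% of all genes.

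The libraries held 57768359 to 74912492 counts, and the 9 genes had 400 to 24635 counts in each. SsA replicate 1 and DMSO replicate 3 stood apart from the other 4 libraries: mitochondrially encoded genes took 18.8% of the counts in SsA replicate 1 and 14.9% in DMSO replicate 3, against 6.19 to 8.28% in the others. The hepatocyte markers did not match the cell label. All 8 of the 15 listed hepatocyte genes that had a row, among them APOA1, FGB and HNF4A, had a mean below 0.1 FPKM (fragments per kilobase of transcript per megafragment), and they summed to 7 to 25 counts per library in SsA and 13 to 27 in DMSO. Among fibroblast genes 3 of 5 reached a mean of 1 FPKM, COL1A1, COL3A1 and PDGFRB, and the list summed to 28.1 to 34.7 FPKM in SsA and 33.4 to 44.4 in DMSO. The one leukocyte gene with a row (CD14) and the 3 endothelial genes were below 1 FPKM, with sums of 0.0528 to 0.123 and 0.457 to 0.485 FPKM in SsA against 0.0369 to 0.0691 and 0.831 to 0.922 FPKM in DMSO. Reads of overlapping genes may be shared: on the same strand MDM2 and PHLDA3 overlap clone-named genes, and on the other strand MDM2 overlaps the carboxypeptidase M gene, TNFRSF10B overlaps RHOBTB2 and TP53I3 overlaps FAM228B. What part the identity of the cells has in the results below was not tested.

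**Figure D1:**
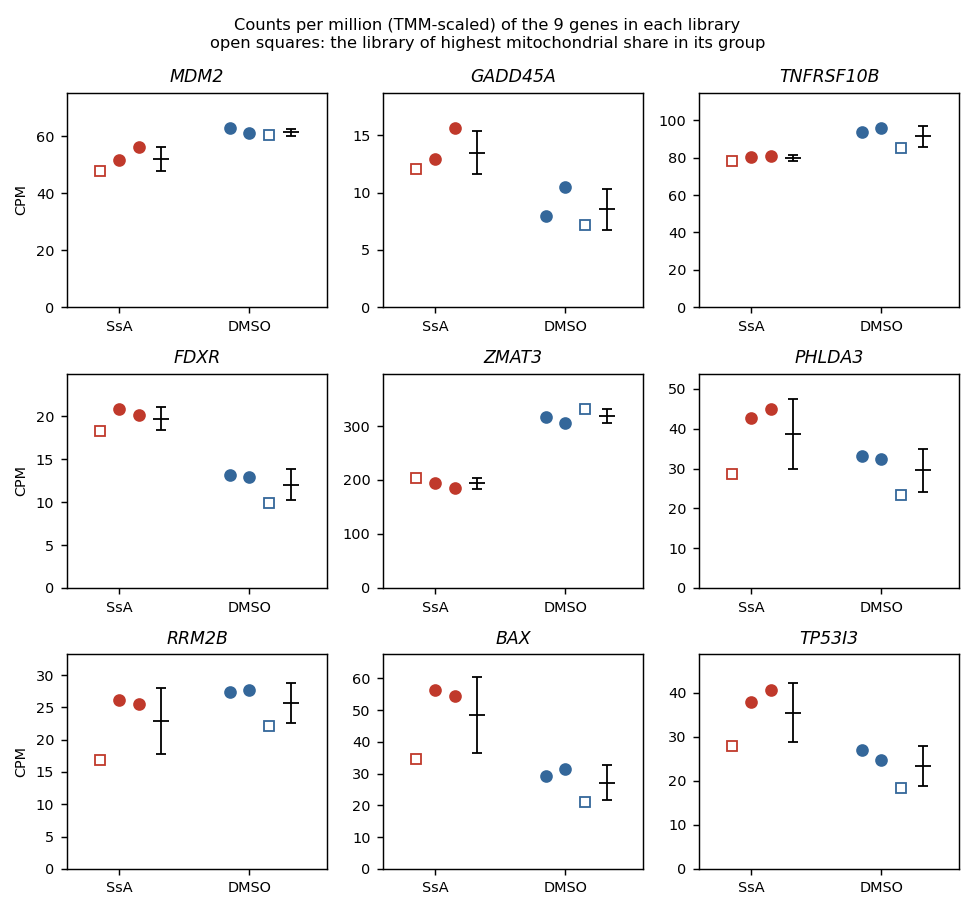
Levels in CPM (TMM-scaled) of the 9 genes, 1 panel each, with SsA libraries on the left (red) and DMSO libraries on the right (blue), and bars for the mean ± SD of 3 libraries. Open squares mark SsA replicate 1 and DMSO replicate 3, the libraries of highest mitochondrial share. The groups do not overlap for 7 genes (4 higher and 3 lower) and overlap for PHLDA3 and RRM2B.

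MDM2 encodes the ubiquitin ligase that marks p53 for degradation and is itself a p53 target. It lies on chromosome 12 (68808177 to 68850686, plus strand, GRCh38). Its level was 47.9, 51.7 and 56.3 CPM (counts scaled by library size after TMM adjustment) in SsA replicates 1, 2 and 3, against 62.7, 61.1 and 60.4 CPM in DMSO. Every SsA library was below every DMSO library. The fit gave -0.24 ± 0.08 as log2 fold change (SE), at an edgeR adjusted p of 0.0327. With an offset for transcript length, described below, the sign turned, to 0.26 (edgeR adjusted p = 0.0702), and in the 4 low-mitochondrial libraries with that offset MDM2 was called higher (0.27, edgeR adjusted p = 0.00278). The call was lost without SsA replicate 1 (edgeR adjusted p = 0.0619), SsA replicate 2 (0.0962), DMSO replicate 1 (0.0906) or DMSO replicate 2 (0.0698). The counts are per gene, so transcripts from the outer start and from the inner start, whose window is shown above, cannot be told apart.

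TNFRSF10B and BAX belong to the death arm of the response. TNFRSF10B encodes DR5, a cell surface receptor for the death ligand TRAIL (chromosome 8, 23020133 to 23069031, minus strand). It had 78.2, 80.2 and 81.2 CPM in SsA replicates 1 to 3, against 93.9, 95.7 and 85.1 CPM in DMSO. The groups did not overlap, but the gap was narrow (log2 fold change -0.20 ± 0.07 SE, edgeR adjusted p = 0.0403). Without SsA replicate 1, 2 or 3 the edgeR adjusted p was 0.0780, 0.105 and 0.0903, and without DMSO replicate 1 or 2 it was 0.131 and 0.135, so this call needed nearly the full set of libraries.

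BAX encodes the pore-forming protein that permeabilises the outer mitochondrial membrane in apoptosis (chromosome 19, 48954815 to 48961798, plus strand). It was at 34.7, 56.3 and 54.3 CPM in SsA replicates 1 to 3, against 29.1, 31.3 and 21.0 CPM in DMSO. The highest rise of the 9 genes (log2 fold change 0.84 ± 0.22 SE, edgeR adjusted p = 0.0161) thus came with a wide spread, and SsA replicate 1 lay close to the upper DMSO libraries. The call was lost without SsA replicate 2 (edgeR adjusted p = 0.0585) or SsA replicate 3 (0.0568). In the 4 low-mitochondrial libraries the log2 fold change was 0.85 (edgeR adjusted p = 5.32e-06), and between SsA replicate 1 and DMSO replicate 3 alone it was 0.73, a value with no replicate.

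GADD45A and RRM2B act on DNA damage. GADD45A encodes a small stress sensor that binds PCNA and cyclin-dependent kinase 1 (chromosome 1, 67685201 to 67688334, plus strand). It had 12.1, 12.9 and 15.6 CPM in SsA replicates 1 to 3, against 7.93, 10.5 and 7.14 CPM in DMSO. Every SsA library was above every DMSO library (log2 fold change 0.66 ± 0.18 SE, edgeR adjusted p = 0.0194). The call was lost without SsA replicate 3 (edgeR adjusted p = 0.0716) or DMSO replicate 1 (0.0689). Its paralog GADD45B rose by a like amount, with 18.6, 19.8 and 21.8 CPM in SsA against 12.8, 13.8 and 11.1 CPM in DMSO (log2 fold change 0.67 ± 0.12 SE, edgeR adjusted p = 0.00302), a call kept without each single library.

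RRM2B encodes the p53-inducible small subunit of ribonucleotide reductase, which supplies deoxynucleotides for repair (chromosome 8, 102204502 to 102238961, minus strand). It had 16.9, 26.2 and 25.5 CPM in SsA replicates 1 to 3, against 27.4, 27.7 and 22.1 CPM in DMSO. The groups overlapped, with SsA replicate 1 and DMSO replicate 3 low in their groups, and the difference did not pass (log2 fold change -0.17 ± 0.18 SE, edgeR adjusted p = 0.451). The other subunits did not pass either: RRM1, the large subunit, had a log2 fold change of 0.16 ± 0.07 and RRM2, the small subunit of S phase, one of -0.10 ± 0.06 (± SE), at edgeR adjusted p = 0.0909 for RRM1 and 0.176 for RRM2. Both passed in the 4 low-mitochondrial libraries, at edgeR adjusted p = 0.003 and 0.0198.

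FDXR and TP53I3 encode oxidoreductases. FDXR is ferredoxin reductase, which passes electrons from NADPH to mitochondrial ferredoxins (chromosome 17, 74862497 to 74873031, minus strand). It had 18.3, 20.8 and 20.1 CPM in SsA replicates 1 to 3, against 13.1, 12.9 and 9.89 CPM in DMSO. The groups were well apart (log2 fold change 0.72 ± 0.13 SE, edgeR adjusted p = 0.00393). The call was kept without each single library. The genes of its partners, the ferredoxins FDX1 and FDX2, also rose, with log2 fold changes of 0.40 ± 0.10 and 0.64 ± 0.12 (± SE), with edgeR adjusted p = 0.0113 for FDX1 and 0.00390 for FDX2. With the length offset, described below, FDX1 was still called (0.43, edgeR adjusted p = 0.0131) and FDX2 was not (0.27, edgeR adjusted p = 0.116). With limma on log2(FPKM + 1), FDX2 was called (0.42, limma adjusted p = 0.0193) and FDX1 was not (0.20, limma adjusted p = 0.268). FDX2 overlaps another gene on its strand, so its counts are uncertain.

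TP53I3, also called PIG3, encodes a quinone oxidoreductase linked to reactive oxygen in p53-driven death (chromosome 2, 24077433 to 24085861, minus strand). It had 27.8, 38.0 and 40.6 CPM in SsA replicates 1 to 3, against 26.9, 24.6 and 18.3 CPM in DMSO. SsA replicate 1 lay just above the highest DMSO library (log2 fold change 0.61 ± 0.19 SE, edgeR adjusted p = 0.0295). The call was lost without SsA replicate 2 (edgeR adjusted p = 0.0904), SsA replicate 3 (0.0989), DMSO replicate 2 (0.0586) or DMSO replicate 3 (0.0582). CRYZ, a related quinone oxidoreductase gene, had a log2 rise of 0.43 ± 0.08 (SE; edgeR adjusted p = 0.00496).

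ZMAT3 and PHLDA3 encode an RNA regulator and a signalling inhibitor. ZMAT3 is a zinc finger protein that binds RNA and affects splicing and transcript stability (chromosome 3, 178960121 to 179071831, minus strand). It was the most abundant of the 9 genes in CPM, with 204, 194 and 185 CPM in SsA replicates 1 to 3, against 316, 306 and 331 CPM in DMSO. The groups were far apart relative to their spread (log2 fold change -0.71 ± 0.07 SE, edgeR adjusted p = 2.82e-04). It was the only one of the 9 genes whose call and direction held in all 20 alternative settings.

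PHLDA3 encodes a pleckstrin homology protein that competes with the kinase AKT for membrane lipids (chromosome 1, 201464278 to 201469237, minus strand). It had 28.7, 42.7 and 44.9 CPM in SsA replicates 1 to 3, against 33.1, 32.5 and 23.4 CPM in DMSO. SsA replicate 1 lay below 2 DMSO libraries, so the groups overlapped and the difference did not pass (log2 fold change 0.39 ± 0.20 SE, edgeR adjusted p = 0.140). It passed without SsA replicate 1 (log2 fold change 0.56, edgeR adjusted p = 0.0220) and in the 4 low-mitochondrial libraries (0.39, edgeR adjusted p = 4.92e-04).

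Most of the 9 genes were lower in the libraries that stood apart, by differing amounts. Relative to the mean of the other 2 SsA libraries, 8 of the 9 were lower in SsA replicate 1, with log2 ratios from -0.67 for BAX to 0.11 for ZMAT3, the exception. The same 8 were lower in DMSO replicate 3 relative to the other 2 DMSO libraries, from -0.53 for BAX to 0.09 for ZMAT3. Over all genes tested, 54.2% were lower in SsA replicate 1 and 50.1% in DMSO replicate 3, with median log2 ratios of -0.03 and -0.001. BAX, PHLDA3 and TP53I3 had log2 ratios of -0.50 to -0.67 in SsA and -0.49 to -0.53 in DMSO. The smallest drops were -0.05 for TNFRSF10B in SsA and -0.04 for MDM2 in DMSO. When only SsA replicate 1 and DMSO replicate 3 were set against each other, the log2 differences ran from 0.89 for FDXR to -0.70 for ZMAT3, with no replicate. For the 7 genes whose groups did not overlap, any such pair has the sign of the full comparison, so that sign tells nothing further. PHLDA3 and RRM2B, whose groups overlapped, were at 0.30 and -0.39, the signs of the full comparison. The part of the mitochondrial share, or of what goes with it, in the levels was not tested.

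Per length, on the scale of deposited FPKM, the levels spanned less than a factor of 10. In SsA, BAX was first at 15.3 ± 4.60 FPKM (mean ± SD, n = 3), followed by ZMAT3 (13.9), TNFRSF10B (12.9), TP53I3 (12.5), PHLDA3 (9.78), GADD45A (5.71), FDXR (4.45), RRM2B (3.47) and MDM2 (3.14). No neighbours in that order were separated by their ranges. In DMSO, ZMAT3 was first at 25.5 ± 1.34 FPKM, followed by TNFRSF10B (16.7), BAX (9.61), TP53I3 (9.23), PHLDA3 (8.38), RRM2B (4.37), MDM2 (4.15), GADD45A (4.06) and FDXR (3.03). There, ZMAT3 was separated from TNFRSF10B, TNFRSF10B from BAX, and PHLDA3 from RRM2B, while other neighbours overlapped.

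**Figure D2:**
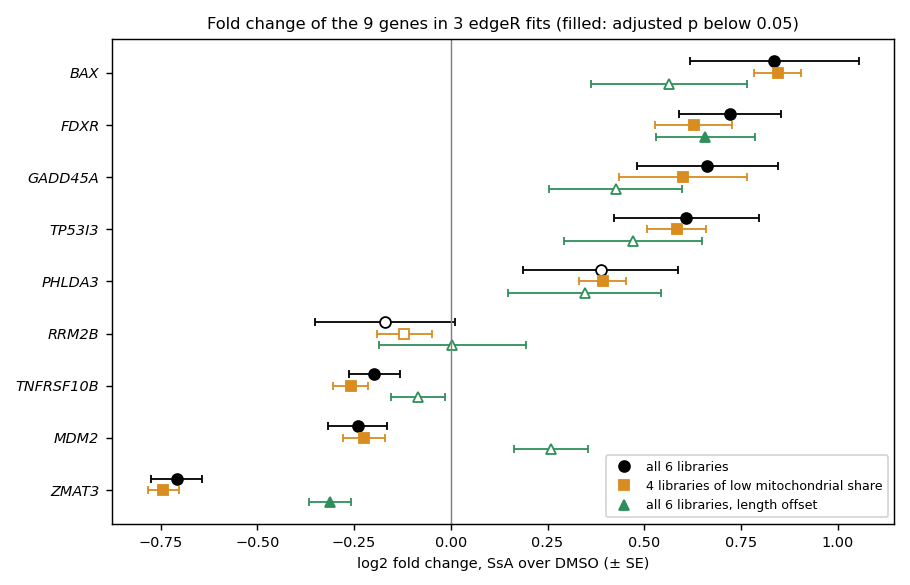
Log2 fold change of SsA over DMSO (± SE) for the 9 genes in 3 edgeR fits: all 6 libraries (black circles), the 4 low-mitochondrial libraries (orange squares) and all 6 libraries with a length offset (green triangles). Filled symbols passed at an adjusted p below 0.05. ZMAT3 and FDXR are filled in all 3 fits, and MDM2 is at -0.24 without and 0.26 with the offset.

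Direction followed transcript length among the 9 genes, as it did over protein-coding genes in general. Over 10040 protein-coding genes, length and log2 fold change had a Spearman correlation of -0.72. The 4 that rose had longest annotated transcripts of 1358 to 2482 nt, the 3 that fell 4146 to 12633 nt, and the 2 that did not pass 2640 nt (PHLDA3) and 4931 nt (RRM2B). Each of the 9 had the sign of the median of its length group, when the 10040 genes were split into 10 groups of like length. Those medians ran from 0.64 in the group of shortest transcripts to -0.66 in that of the longest. The share of all genes with the sign of their group is not reported here. Against the quartiles of those groups, BAX (0.84), FDXR (0.72), TP53I3 (0.61) and PHLDA3 (0.39) lay above the upper quartile (0.82, 0.44, 0.59 and 0.31), and so did MDM2 (-0.24 against -0.30). GADD45A, TNFRSF10B, RRM2B and ZMAT3 lay within the quartiles of their groups.

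With an offset per library that is linear in log2 transcript length, FDXR (log2 fold change 0.66, edgeR adjusted p = 0.00783) and ZMAT3 (-0.31, edgeR adjusted p = 0.00486) were still called, 1 higher and 1 lower of 9, where 20.5% and 18.8% of all genes were called. The other calls were lost, at edgeR adjusted p = 0.0610 for BAX, 0.0733 for TP53I3, 0.0872 for GADD45A and 0.372 for TNFRSF10B. The sign of MDM2 turned, to 0.26 (edgeR adjusted p = 0.0702). With limma on log2(FPKM + 1) of the deposited values, where the median of all genes was -0.11, ZMAT3 alone was called (-0.83, limma adjusted p = 5.18e-04). Of the 11427 genes tested, 923 were called higher and 3701 lower in that fit. The closest of the 9 genes after ZMAT3 were MDM2 (limma adjusted p = 0.0554) and FDXR (0.0574).

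**Figure D3:**
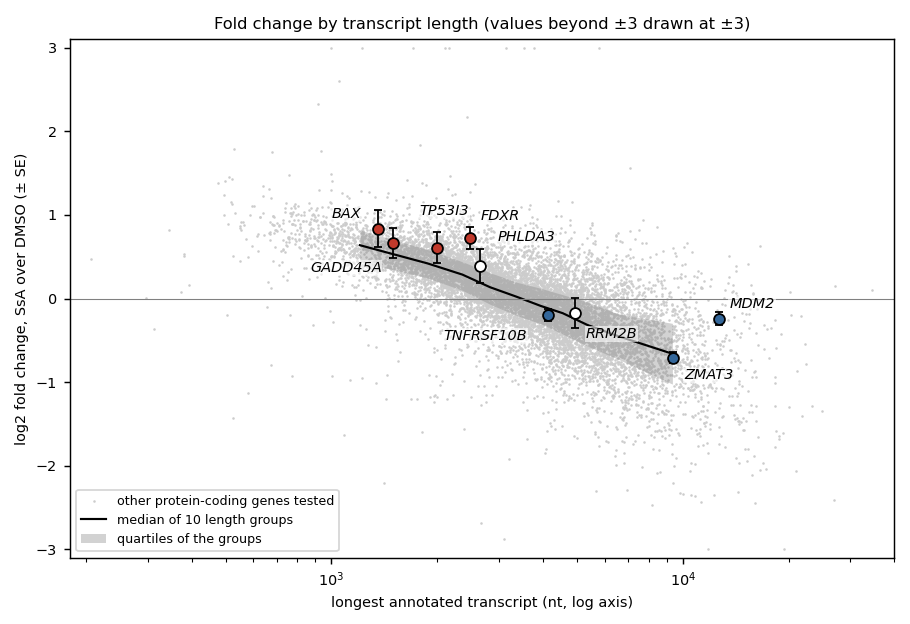
Log2 fold change of SsA over DMSO against the length of the longest annotated transcript (nt, log axis) for protein-coding genes tested (grey), with the median and quartiles of 10 length groups. The 9 genes carry SE bars and are red where called higher, blue where called lower and white where not called. BAX, FDXR, TP53I3, PHLDA3 and MDM2 have values above the upper quartile of their length groups. GADD45A, TNFRSF10B, RRM2B and ZMAT3 have values within the quartiles of theirs.

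Genes around the control of p53 were described from a list of 15 genes, of which 13 were tested. Of these, 1 rose (7.69%, against 25.9% of all genes) and 6 fell (46.2%, against 27.9%). The median log2 fold change was -0.23 beside 0.03 over all genes. The 1 that rose was COP1, a ubiquitin ligase of p53, named after its values were seen (0.27 ± 0.08 on the log2 scale). With the length offset 2 of the 13 were higher and 3 lower, against 20.5% and 18.8% of all genes. The median was then -0.001 beside 0.05 over all genes. The COP1 call was lost without SsA replicate 2 or 3 or DMSO replicate 1 or 3 (edgeR adjusted p = 0.0506 to 0.0767). Its value was -0.09 on the TPM scale, where the median of all genes was -0.31. MDM4, the MDM2 relative that masks the activation domain of p53, did not pass (-0.07 ± 0.10, edgeR adjusted p = 0.556).

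HIPK2, a kinase that phosphorylates p53, fell most of the listed genes. It had 9.66, 9.71 and 9.36 CPM in SsA replicates 1 to 3, against 31.8, 31.1 and 37.4 CPM in DMSO (log2 fold change -1.80 ± 0.10 SE, edgeR adjusted p = 5.93e-05). Its SsA values were within a narrow range, far below DMSO. HIPK2 was under 1 FPKM in every SsA library, with a mean of 0.496 FPKM against 1.93 FPKM in DMSO. It thus met the limit of 1 FPKM in 3 libraries through the DMSO group alone. With a limit of at least 10 counts over the 6 libraries instead, its log2 fold change was -1.74 (edgeR adjusted p = 5.75e-05). The fall was kept with the length offset (-1.24, edgeR adjusted p = 2.55e-04). The damage kinase gene ATM fell, at a log2 fold change of -0.84 ± 0.07 (edgeR adjusted p = 1.60e-04) and was also still called with the offset (-0.33, edgeR adjusted p = 0.0141). ATR (-0.40 ± 0.06), a related damage kinase, and TP53BP1 (-0.43 ± 0.08), a scaffold at DNA breaks, fell too (edgeR adjusted p = 0.00155 and 0.00457), but not with the offset (-0.05 and -0.0008, edgeR adjusted p = 0.573 and 0.994).

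Other known p53 targets moved in both directions. Together with the regulators the lists held 80 genes besides the 9, of which 64 were tested. Of these 64, 19 rose (29.7%), 16 fell (25.0%) and 29 did not pass, against 25.9% higher and 27.9% lower over all genes, with a median log2 fold change of 0.06. Of the 35 called, 21 kept their call without each single library, 19 were called with the same sign with the length offset and 21 on the FPKM scale. Among the 10 that met all of these were HIPK2, ATM, XPC, POLH, CES2, LPIN1 and SUSD6, which fell, and BID and GDF15, which rose. The shares of all called genes that met the same criteria are not reported here, so these counts cannot be set against a background.

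In the cell cycle list, 4 of 10 tested genes rose (25.9% of all genes did) and 0 fell (27.9% of all genes did), with a median of 0.17. With the length offset 1, BTG2, was called higher (edgeR adjusted p = 0.0459) and 0 lower, against 20.5% and 18.8% of all genes. CDKN1A, which encodes the cyclin-dependent kinase inhibitor p21 and is the best known p53 target, had 47.8, 52.9 and 38.8 CPM in SsA replicates 1 to 3, against 38.5, 42.1 and 39.1 CPM in DMSO. Its groups overlapped and it did not pass (log2 fold change 0.22 ± 0.12 SE, edgeR adjusted p = 0.152), except without SsA replicate 3 (edgeR adjusted p = 0.0285). SFN (14-3-3 sigma), which holds cells before mitosis, had 303, 271 and 277 CPM in SsA against 185, 190 and 216 CPM in DMSO (log2 fold change 0.53 ± 0.08; edgeR adjusted p = 0.00208; 0.0842 with the length offset, where RPRM was at 0.196 and CCNG1 at 0.160). BTG2 (0.55 ± 0.17), RPRM (0.65 ± 0.23) and CCNG1 (0.24 ± 0.09) rose with larger edgeR adjusted p (0.0284, 0.0494 and 0.0497). The BTG2 call was lost without SsA replicate 1 or 2 or DMSO replicate 1 or 2 (edgeR adjusted p = 0.0685 to 0.0974). The RPRM call was lost without any library but SsA replicate 1 (0.0852 to 0.169), and the CCNG1 call without any library but DMSO replicate 3 (0.0775 to 0.161). On the TPM scale, where the median of all genes was -0.31, CCNG1 was at -0.12.

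In the cell death list, 3 of 9 tested genes rose and 1 fell (median 0.04), against 25.9% and 27.9% of all genes. With the length offset 2 were higher and 0 lower (median 0.18), against 20.5% and 18.8% of all genes. PERP, a membrane protein gene, had 342, 373 and 380 CPM in SsA replicates 1 to 3, against 255, 259 and 249 CPM in DMSO (log2 fold change 0.52 ± 0.06 SE, edgeR adjusted p = 7.96e-04). BID, which links death receptors to mitochondria, had a log2 rise of 0.62 ± 0.08 (edgeR adjusted p = 8.36e-04). Both were called with the length offset as well. PMAIP1, the BH3-only gene for NOXA, rose by 0.61 ± 0.18 (edgeR adjusted p = 0.0264), a call lost without SsA replicate 2 (0.0956), SsA replicate 3 (0.0718), DMSO replicate 2 (0.0782) or DMSO replicate 3 (0.0589). APAF1, the apoptosome scaffold, fell by 0.38 ± 0.10 (edgeR adjusted p = 0.0182), which was lost without SsA replicate 2 (0.0512), DMSO replicate 1 (0.0591) or DMSO replicate 2 (0.0540). FAS, a death receptor like TNFRSF10B, did not pass (-0.02 ± 0.12, edgeR adjusted p = 0.877).

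Among the other TRAIL receptors, TNFRSF10A (DR4) did not pass, at -0.02 ± 0.12 in log2 units (edgeR adjusted p = 0.901). TNFRSF10D, a decoy receptor gene, rose by 0.30 ± 0.09 (edgeR adjusted p = 0.0218). That call was lost without SsA replicate 2 (0.0694), SsA replicate 3 (0.0774), DMSO replicate 2 (0.0721) or DMSO replicate 3 (0.0582). The value of TNFRSF10D was -0.06 on the TPM scale, where the median of all genes was -0.31. TNFRSF10C, the other decoy, was under the expression limit, with at most 9 counts in a library. Among BCL2 family partners of BAX, BAK1 rose by 0.44 ± 0.15 (edgeR adjusted p = 0.0442), a call lost without SsA replicate 2 (0.109), SsA replicate 3 (0.142), DMSO replicate 1 (0.130) or DMSO replicate 3 (0.111). BCL2L1 and MCL1, which restrain BAX, did not pass (-0.15 ± 0.06 and -0.08 ± 0.08, edgeR adjusted p = 0.0739 and 0.426). BCL2L1 was, however, called lower in 8 of 20 alternative settings. These included the length offset (-0.20, edgeR adjusted p = 0.0432), the 4 low-mitochondrial libraries (-0.20, edgeR adjusted p = 0.00349) and the fit without SsA replicate 1 (0.0434). In the list of paralogs and partners as a whole, 9 of 16 tested genes rose (56.2%, against 25.9% of all genes) and 0 fell (median 0.36). With the length offset 6 were higher and 1, BCL2L1, lower (median 0.28), against 20.5% and 18.8% of all genes. In the 4 low-mitochondrial libraries 9 were higher and 2 lower, against 33.3% and 34.5% of all genes.

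In the DNA repair list, 2 of 7 tested genes rose and 3 fell (median -0.11), against 25.9% and 27.9% of all genes. With the length offset 3 were higher and 2 lower, against 20.5% and 18.8% of all genes, and the median was 0.23. XPC, which recognises damaged bases for excision repair, had 36.9, 37.0 and 35.7 CPM in SsA replicates 1 to 3, against 53.5, 52.9 and 44.1 CPM in DMSO (log2 fold change -0.46 ± 0.09 SE, edgeR adjusted p = 0.00522). POLH, a translesion polymerase gene, fell by 0.46 ± 0.07 and ASCC3, a helicase gene, by 0.42 ± 0.06 in log2 units (edgeR adjusted p = 0.00224 and 0.00164). The falls of XPC and POLH were kept with the length offset (-0.37 and -0.40), whereas ASCC3 was at -0.08 (edgeR adjusted p = 0.304). The 2 that rose were GADD45B, given above, and DDB2 (0.29 ± 0.08, edgeR adjusted p = 0.0197), which works with XPC. The DDB2 call was lost without DMSO replicate 1 (0.0864) or DMSO replicate 3 (0.0670). Its value was -0.07 on the TPM scale, where the median of all genes was -0.31.

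In the metabolism and autophagy list, 2 of 8 tested genes rose and 2 fell (median 0.06), against 25.9% and 27.9% of all genes. With the length offset 1 was higher and 2 lower (median 0.08), against 20.5% and 18.8% of all genes. TIGAR, which lowers glycolytic flux, had a log2 rise of 0.43 ± 0.10 (edgeR adjusted p = 0.0123). The TIGAR call was kept with the length offset (0.49, edgeR adjusted p = 0.0110) but not with limma on log2(FPKM + 1) (0.17, limma adjusted p = 0.270). Its value was 0.05 on the TPM scale, where the median of all genes was -0.31. TIGAR overlaps a clone-named gene on the same strand (AC008012.1) over 52266 bases. SCO2, a copper chaperone gene of cytochrome oxidase, was low, with 4.10, 3.51 and 4.02 CPM in SsA replicates 1 to 3 against 1.41, 1.65 and 2.82 CPM in DMSO. Its rise (0.99 ± 0.29, edgeR adjusted p = 0.0246) was lost without SsA replicate 2 (0.0512), SsA replicate 3 (0.0708), DMSO replicate 1 (0.0723) or DMSO replicate 2 (0.0740), and SCO2 shares part of its span with TYMP on the same strand. CES2, a carboxylesterase gene, and LPIN1, a phosphatidate phosphatase gene, fell by 0.48 ± 0.07 and 0.48 ± 0.06 (edgeR adjusted p = 0.00166 and 9.25e-04).

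In the list of signalling and other targets, 7 of 17 tested genes rose and 4 fell (median 0.21), against 25.9% and 27.9% of all genes. With the length offset 5 were higher and 1 lower (median 0.17), against 20.5% and 18.8% of all genes. GDF15, a secreted stress cytokine, rose most, with 12.5, 10.8 and 7.86 CPM in SsA replicates 1 to 3 against 4.44, 4.62 and 5.46 CPM in DMSO (log2 fold change 1.10 ± 0.20 SE, edgeR adjusted p = 0.00392). TM7SF3, a membrane protein gene, rose by 0.30 ± 0.06 (edgeR adjusted p = 0.00372). Its value was -0.06 on the TPM scale, where the median of all genes was -0.31. SUSD6, a sushi domain gene, fell to 9.37, 6.64 and 7.19 CPM in SsA replicates 1 to 3, against 14.7, 13.7 and 14.1 CPM in DMSO (-0.88 ± 0.15, edgeR adjusted p = 0.00311). KITLG, the ligand of the receptor KIT, fell by 0.40 ± 0.07 (edgeR adjusted p = 0.00308), and by 0.17 with the length offset, where it did not pass (edgeR adjusted p = 0.119).

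**Figure D4:**
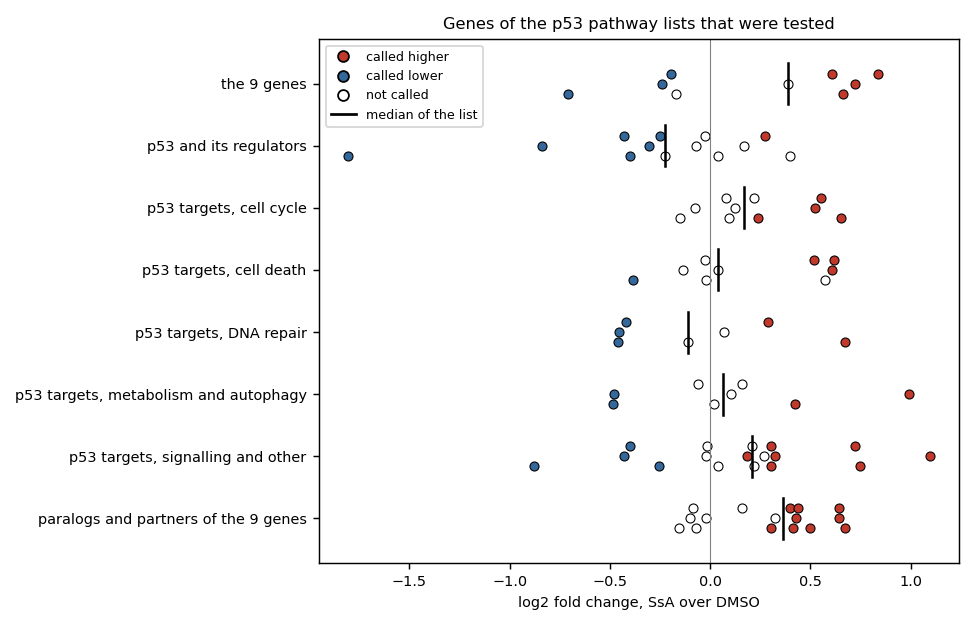
Log2 fold change of SsA over DMSO for each tested gene (points) of the 9 genes and of 7 lists around p53, with list medians as vertical bars. Red points were called higher, blue lower and white not called. HIPK2 at -1.80 is the lowest point, GDF15 at 1.10 the highest, and each list of targets other than the cell cycle list holds both red and blue points.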

How the data were processed

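The labels' protocols describe poly(A) selection and strand-marking dUTP libraries of total RNA. The submitters' processing notes name HISAT2 2.0.4, cutadapt 1.9, StringTie 1.3.4d and GRCh38. The counting step was not given in the sources used here, nor was its strand setting, and reads of genes that overlap on either strand may be shared. Per the file headers, the authors deposited an FPKM value and a whole-number count for each gene and library; FPKM was divided by length and depth by the authors.

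Genes with at least 1 FPKM in at least 3 of 6 libraries were tested (11427 of 29435), which all 9 genes passed with at least 1 FPKM in every library. Counts were TMM-scaled and tested with edgeR 4.0.16 (quasi-likelihood, two-sided, Benjamini-Hochberg, threshold 0.05), after a check on simulated data; SE is the log2 fold change over the square root of F. Alternatives used DESeq2 1.42.0, limma 3.58.1 on log2(FPKM + 1), log2(FPKM + 0.1) or log2(TPM + 1), other filters and scalings, and an offset linear in log2 of the longest GENCODE 29 transcript. Median log2 fold changes of all genes were -0.11 on the FPKM and -0.31 on the TPM scale. Replicates of a group differed by far more than sampling noise (chi-square of at least 15.2 per gene). The genes, lists and tests were chosen with earlier results of these data known. Genes named are the 9, MDM4, CDKN1A, fixed paralogs and up to 4 of smallest p per list; FAS, BCL2L1, MCL1, DDB2, COP1, TP53INP1, TP63, TP73, EDA2R, TRIM22, GLS2, FBXO22 and PTP4A1 were named after their values were seen. Listed genes without a row were not analysed here, and single values of some listed genes are not reported here.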

Additional observations from a re-analysis of the deposited data

How the results depend on the processing

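Of 176 values of the 9 genes under 20 alternatives, 115 kept direction and side of the threshold, 51 lost the call, 4 gained it and 6 changed sign. MDM2 changed sign with the length offset (0.26), with that offset and the replicate block (0.25) and with it in the 4 low-mitochondrial libraries (0.27, edgeR adjusted p = 0.00278), the last a setting chosen after seeing the data. RRM2B, at -0.17 without it and not called under any alternative, was at 0.0039 with the length offset, 0.054 with it in the 4 libraries and -0.29 to 0.0047 leaving out each library (0.0047 without SsA replicate 1). The cause was not tested. The count of the 9 called higher was 1 with a mean FPKM of at least 5, 0 with limma on FPKM (either pseudocount) or TPM, 2 with the replicate block, 1 with the length offset with or without the block, and 1 to 5 leaving out each library. The count called lower was 1 with at least 10 counts over the 6 libraries, with limma on FPKM or TPM, with the block and with the length offset with or without it, and 1 to 3 leaving out each library. Over all genes, 1666 were called higher and 1762 lower with a mean FPKM of at least 5, where fewer genes were tested. Called higher were 923 or 835 on the FPKM scale (pseudocount 1 or 0.1) and 45 on the TPM scale. Called lower were 3701 or 3679 on the FPKM scale and 2380 on the TPM scale. With the length offset and block 1211 were higher and 1368 lower. Leaving out each library gave 2005 to 3153 higher and 2594 to 3249 lower. Replicate numbers did not pair the libraries: deviations of same-numbered libraries correlated at -0.34, 0.29 and -0.35, while SsA replicate 1 and DMSO replicate 3 correlated at 0.55. With the replicate block 2074 genes were higher and 2542 lower.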

Other observations

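Several known p53 targets and relatives had few or no counts. TP53INP1 had 0, 3 and 12 counts in SsA replicates 1 to 3 and 0 counts in each DMSO library. The p53 relatives TP63 and TP73 reached at most 21 and 18 counts in a library, and EDA2R, TRIM22 and GLS2 at most 4, 11 and 6. TP53INP1 lies inside NDUFAF6 and TRIM22 inside TRIM5, each on the other strand, with up to 1390 counts for NDUFAF6 and 903 for TRIM5, and GLS2 lies largely under another gene on its strand. Whether reads shared between such genes were left out of the counts was not tested. With the length offset, FBXO22, an F-box gene with a longest transcript of 10725 nt, was called higher (log2 fold change 0.51, edgeR adjusted p = 0.00155; 0.07 and 0.398 without it), and MDM4 likewise (0.35, edgeR adjusted p = 0.0471).

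PTP4A1, a phosphatase gene on the list of other targets, varied widely between libraries of a group. It had 3.64, 65.6 and 88.8 CPM in SsA replicates 1 to 3, against 65.2, 74.6 and 19.7 CPM in DMSO, so the low libraries were SsA replicate 1 and DMSO replicate 3, those of high mitochondrial share. PTP4A1 overlaps a gene on the same strand (AL135905.2), which had up to 39963 counts in a library. How reads were divided between them was not tested.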
